A study of Homo sapiens with 12 samples.

Results

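The genes described here are 32 established direct targets of p53, a transcription factor, in RNA sequencing of MCF10A, an established line of human mammary epithelial cells that does not form tumours. They were taken from the 62082 genes of the deposited tables as the rows whose symbol is on the list. Of the 32 genes, 31 were found by symbol, and TIGAR, which the tables list under its older name C12orf5, was found by its Ensembl identifier ENSG00000078237. All 32 passed the filter on low values and were tested in every comparison. Of these genes 14 act in or around cell death, 6 in the cell cycle, 4 in DNA repair, 4 in metabolism and redox balance and 4 in other processes.

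The series held 4 groups of 3 libraries. The p53-deleted H-Ras group carried a targeted deletion of p53 at exon 2 together with H-RasV12, an activated H-Ras mutant expressed stably from a retrovirus. The p53 wild-type H-Ras group carried the same construct with p53 intact. The p53-deleted vector and p53 wild-type vector groups carried the empty pBabepuro vector. All groups grew without treatment in DME/F-12 medium with supplements that included horse serum. Each H-Ras line has as its control a vector line produced alongside it, so p53 status and line pair cannot be told apart in any comparison across backgrounds. Whether a line was a single clone was not stated, nor whether the replicates were separate cultures. The p-values therefore measure only how these libraries vary, and that variation may be technical.

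Wild-type p53 is kept low in unstressed cells by the ubiquitin ligase MDM2, itself the product of a p53 target gene. DNA damage, activated oncogenes and other stresses relieve this control, and p53 then binds paired copies of a consensus half-site near its target genes and raises their transcription. The targets arrest the cell cycle, repair DNA, adjust metabolism or promote cell death. Many of them are also transcribed by routes that do not need p53, which sets a basal level that differs between cell types.

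Levels are given as normalized counts, which are reads of a library divided by a size factor set over all 12 libraries. Libraries were named A, B and C within a group by falling size factor, and values below are in that order. Estimated totals ranged from 7852553 to 10075574 reads per library. HRAS, the gene of the introduced construct, had deposited means of 17779 in the p53-deleted H-Ras group against 839.7 in the p53-deleted vector group. With p53 intact they were 16949 with H-Ras against 859.9 in the p53 wild-type vector group. Library A of the p53 wild-type vector group and library C of the p53 wild-type H-Ras group stood apart, with a chi-square per degree of freedom of 22.2 to 27.2 against the other libraries of their group. The other pairs of libraries within a group had 2.19 to 11.3. Over 18 proliferation genes the median deviation from the other 2 libraries was -0.82 (log2) in p53 wild-type vector library A and 1.60 in p53 wild-type H-Ras library C. Over the 32 p53 targets it was -0.06 in p53 wild-type vector library A and -0.10 in p53 wild-type H-Ras library C. In such a median, members above and below the other libraries cancel. In p53 wild-type vector library A TP53I11 was at 493 against 208 and 188, and TIGAR at 160.1 against 319 and 399. In p53 wild-type H-Ras library C PLK2 was at 163 against 64.5 and 52.3, and TP53I11 at 137 against 233 and 248.

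Epithelial markers were lower in both H-Ras lines. Of the 8 mammary epithelial markers, 6 of the 7 tested in the p53-deleted background and 8 of 8 in the p53 wild-type background fell with H-Ras. Of all genes 28.4% were lower with H-Ras in the p53-deleted and 12.7% in the p53 wild-type background. The deposited mean of CDH1, which encodes the epithelial cadherin, was 39.3 in the p53-deleted H-Ras group against 3102 in the p53-deleted vector group. With p53 intact it was 7.11 in the H-Ras group against 2041 in the vector group. TP63, a transcription factor of basal epithelium, was at 2.01 in the p53-deleted H-Ras group against 1032 in the p53-deleted vector group, and with p53 intact at 1.97 in the H-Ras group against 1049 in the vector group. KRT8 and KRT18, keratins of simple epithelium, kept deposited means of 823 to 6411 in all 4 groups. Across p53 status KRT17 was higher (log2 fold change 1.56) and KRT14 (-1.57), EPCAM (-0.64), KRT18 (-0.60) and KRT8 (-0.49) were lower in the p53-deleted vector line. In the p53-deleted H-Ras line EPCAM (2.43), CDH1 (2.28) and KRT18 (0.39) were higher and KRT14 (-3.53) was lower. The 7 tested epithelial markers summed to 5661 to 6237 normalized counts in p53-deleted H-Ras and 4224 to 5594 in p53 wild-type H-Ras libraries. In vector cells the sum was 13451 to 15051 in p53-deleted and 14853 to 15512 in p53 wild-type libraries. KRT5 is left out, because its p53-deleted vector mean was not split into library values. In p53-deleted cells the deposited mean of KRT5 was 3239 with H-Ras and 45144 with vector. With p53 intact it was 5245 with H-Ras and 34616 with vector. Across p53 status KRT5 was not tested, and its means ran opposite to the sum in both pairs. The sum therefore does not give a direction for all 8 markers. The summed level of 5 fibroblast markers was 330.4 to 662 normalized counts in p53-deleted H-Ras against 89.8 to 131 in p53-deleted vector libraries, and 2452 to 3860.0 in p53 wild-type H-Ras against 217 to 327 in p53 wild-type vector libraries. The summed level of 4 endothelial markers was 158 to 226 normalized counts in p53-deleted H-Ras against 21.3 to 49.7 in p53-deleted vector libraries, and 96.6 to 147 in p53 wild-type H-Ras against 20.1 to 81.0 in p53 wild-type vector libraries. The summed level of 4 leukocyte markers was 182 to 334 normalized counts in p53-deleted H-Ras against 47.2 to 97.5 in p53-deleted vector libraries, and 152 to 570.0 in p53 wild-type H-Ras against 253 to 852 in p53 wild-type vector libraries. The fibroblast sum in H-Ras libraries was mostly DCN, which averaged 485 in the p53-deleted and 3199 in the p53 wild-type group. COL1A1 was lower with H-Ras (log2 fold change -0.86 in the p53-deleted and -1.54 in the p53 wild-type background). KDR had the highest mean of the endothelial markers and CD14 of the leukocyte markers in every group. CDH5 averaged 1.72 in p53 wild-type H-Ras against 17.2 in p53 wild-type vector libraries. The defining leukocyte genes PTPRC and CD3E, the endothelial gene PECAM1 and the fibroblast gene COL3A1 were listed at 0 in all 4 groups. Their part in the results below, and that of the epithelial and proliferation genes, was not tested. In bulk RNA fewer cells of a type and less RNA per cell cannot be told apart.

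Promoter sequence from RefSeq (GRCh38.p14, from 250 bases before to 50 bases after the start of the gene) was on hand for 26 of the 32 genes. Each was searched for a pair of p53 consensus half-sites of 10 bases with the core bases kept, at most 2 mismatches in a half-site and 3 in the pair, and at most 13 bases between them. The half-site reads the same way on both strands. A pair was found in 5 of the 26 genes, AEN, DDB2, FAS, GDF15 and RPS27L, and in 4.77% of the 27305 genes with promoter sequence. DDB2 held a pair with 0 mismatches, which 10 of the 27305 genes did (0.0366%). The promoters of DDB2, FAS and AEN are shown because they carry the pairs with the fewest mismatches. They run from 250 bases before to 30 bases after the start, 5′ to 3′ on the gene's strand, with the half-sites in capitals. They lie at chr11:47214724-47215003 for DDB2, chr10:88991181-88991460 for FAS and chr15:88621090-88621369 for AEN, all on the plus strand.
DDB2: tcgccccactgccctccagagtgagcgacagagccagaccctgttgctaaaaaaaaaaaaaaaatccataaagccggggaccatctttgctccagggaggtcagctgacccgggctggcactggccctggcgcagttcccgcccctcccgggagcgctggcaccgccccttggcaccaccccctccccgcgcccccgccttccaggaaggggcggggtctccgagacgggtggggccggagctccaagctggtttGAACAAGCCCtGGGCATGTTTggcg
FAS: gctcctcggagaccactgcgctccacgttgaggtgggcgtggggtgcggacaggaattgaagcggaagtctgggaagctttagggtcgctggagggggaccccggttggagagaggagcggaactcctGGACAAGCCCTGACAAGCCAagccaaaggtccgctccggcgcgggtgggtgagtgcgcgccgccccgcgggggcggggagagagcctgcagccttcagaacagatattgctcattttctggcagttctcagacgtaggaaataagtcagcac
AEN: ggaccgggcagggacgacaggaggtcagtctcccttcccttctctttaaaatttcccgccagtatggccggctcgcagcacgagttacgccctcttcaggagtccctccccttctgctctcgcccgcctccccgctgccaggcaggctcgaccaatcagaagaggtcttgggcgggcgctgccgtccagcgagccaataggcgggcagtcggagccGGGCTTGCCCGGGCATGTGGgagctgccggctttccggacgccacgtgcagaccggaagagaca
The pair of GDF15, with 3 mismatches, lies 29 to 48 bases after the start on chromosome 19, where base 1 is the first base of the gene.
GDF15: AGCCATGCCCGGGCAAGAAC
In DDB2 a single base separates the half-sites, 6 to 26 bases after the start. In FAS the half-sites adjoin, 122 to 103 bases before the start, and in AEN they adjoin, 34 to 15 bases before it. DDB2 and GDF15 were lower in both p53-deleted lines, FAS was higher in both, and AEN did not pass the test in either. A match is a description of the letters and does not show binding in these cells.

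The first question was how the targets differed where p53 was deleted. They did not move one way. In vector cells 8 of the 32 genes were higher and 7 lower in the p53-deleted than in the p53 wild-type line. Over all 13233 genes tested, 33.0% passed the test, 16.1% higher and 16.8% lower. The members passed it in 46.9% of cases, and their median log2 fold change was -0.03, against -0.0031 over all genes. With 1 library left out the members' median ran from -0.11 to 0.04. In H-Ras cells 11 were higher and 8 lower, or 59.4%, with 37.3% of all genes passing, 19.1% higher and 18.2% lower. The median log2 fold change of the members was there 0.04, against -0.01 over all genes, and ran from 0.06 to 0.09 with 1 library left out. A gene passed the test, here and below, when limma's moderated test over all genes gave a two-sided Benjamini-Hochberg adjusted p under 0.05. Fold changes are on the scale of log2(normalized count + 1), which understates those of low genes, and run p53-deleted over p53 wild-type.

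**Figure D1:**
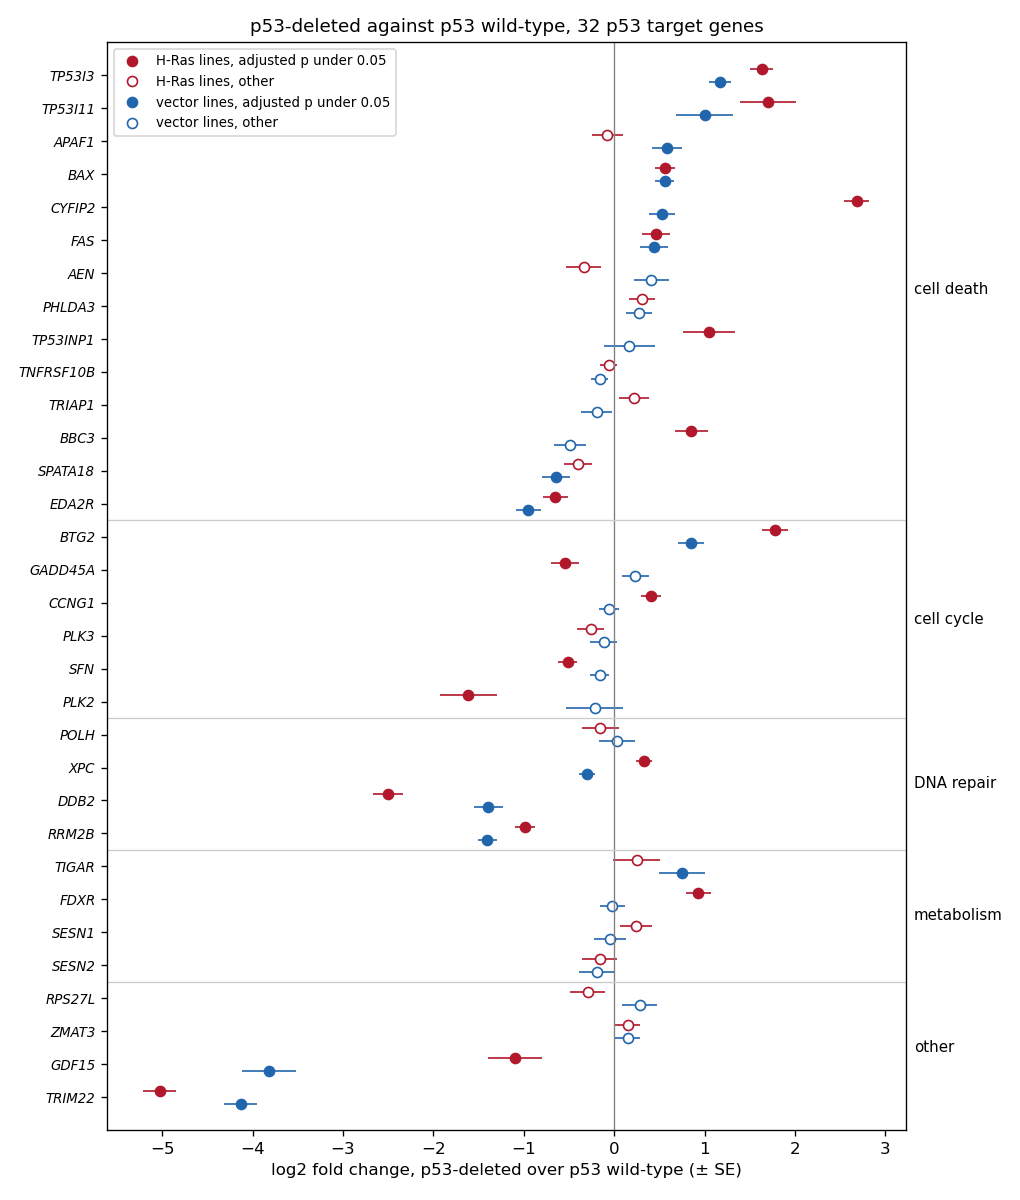
Log2 fold change (± SE) of each of the 32 p53 target genes in p53-deleted over p53 wild-type cells, grouped by function. Red points are H-Ras lines and blue points vector lines, and filled points passed an adjusted p of 0.05. TRIM22, at -5.03 in H-Ras and -4.13 in vector lines, and GDF15, at -3.82 in vector lines, lie far left, while CYFIP2 at 2.68 in H-Ras lines lies farthest right.

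TRIM22, GDF15, DDB2 and RRM2B fell most in the p53-deleted vector line. TRIM22 encodes an interferon-inducible antiviral protein of the tripartite motif family. It had 42.1, 32.4 and 36.8 normalized counts in p53-deleted vector libraries, against 618, 684 and 692 in p53 wild-type vector libraries. The 2 groups were far apart, with TRIM22 17.9-fold lower in the p53-deleted line (log2 fold change -4.13 ± 0.18 SE, adjusted p = 1.1e-08). In H-Ras cells TRIM22 had 9.80, 8.76 and 14.8 normalized counts in p53-deleted H-Ras libraries, against 360.2, 403 and 396 in p53 wild-type H-Ras libraries. It was 34.7-fold lower in the p53-deleted H-Ras line (log2 fold change -5.03 ± 0.18 SE, adjusted p = 1.9e-09), and ranked 40 from the lowest fold change of 13233 genes. GDF15 encodes a secreted stress cytokine of the transforming growth factor beta family. It had 24.7, 17.6 and 30.8 normalized counts in p53-deleted vector libraries, against 494, 295 and 293 in p53 wild-type vector libraries. Every p53-deleted vector library was at a small share of the p53 wild-type level, 14.8-fold lower on average (log2 fold change -3.82 ± 0.30 SE, adjusted p = 1.3e-06). In H-Ras cells GDF15 had 257, 210.3 and 233 normalized counts in p53-deleted H-Ras libraries, against 708, 574 and 307 in p53 wild-type H-Ras libraries. The gap was narrower there, and p53 wild-type library C was the lowest of its group and close to the p53-deleted libraries. GDF15 was 2.27-fold lower (log2 fold change -1.10 ± 0.30 SE, adjusted p = 0.012), and without p53 wild-type H-Ras library A the adjusted p by limma was 0.053.

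**Figure D2:**
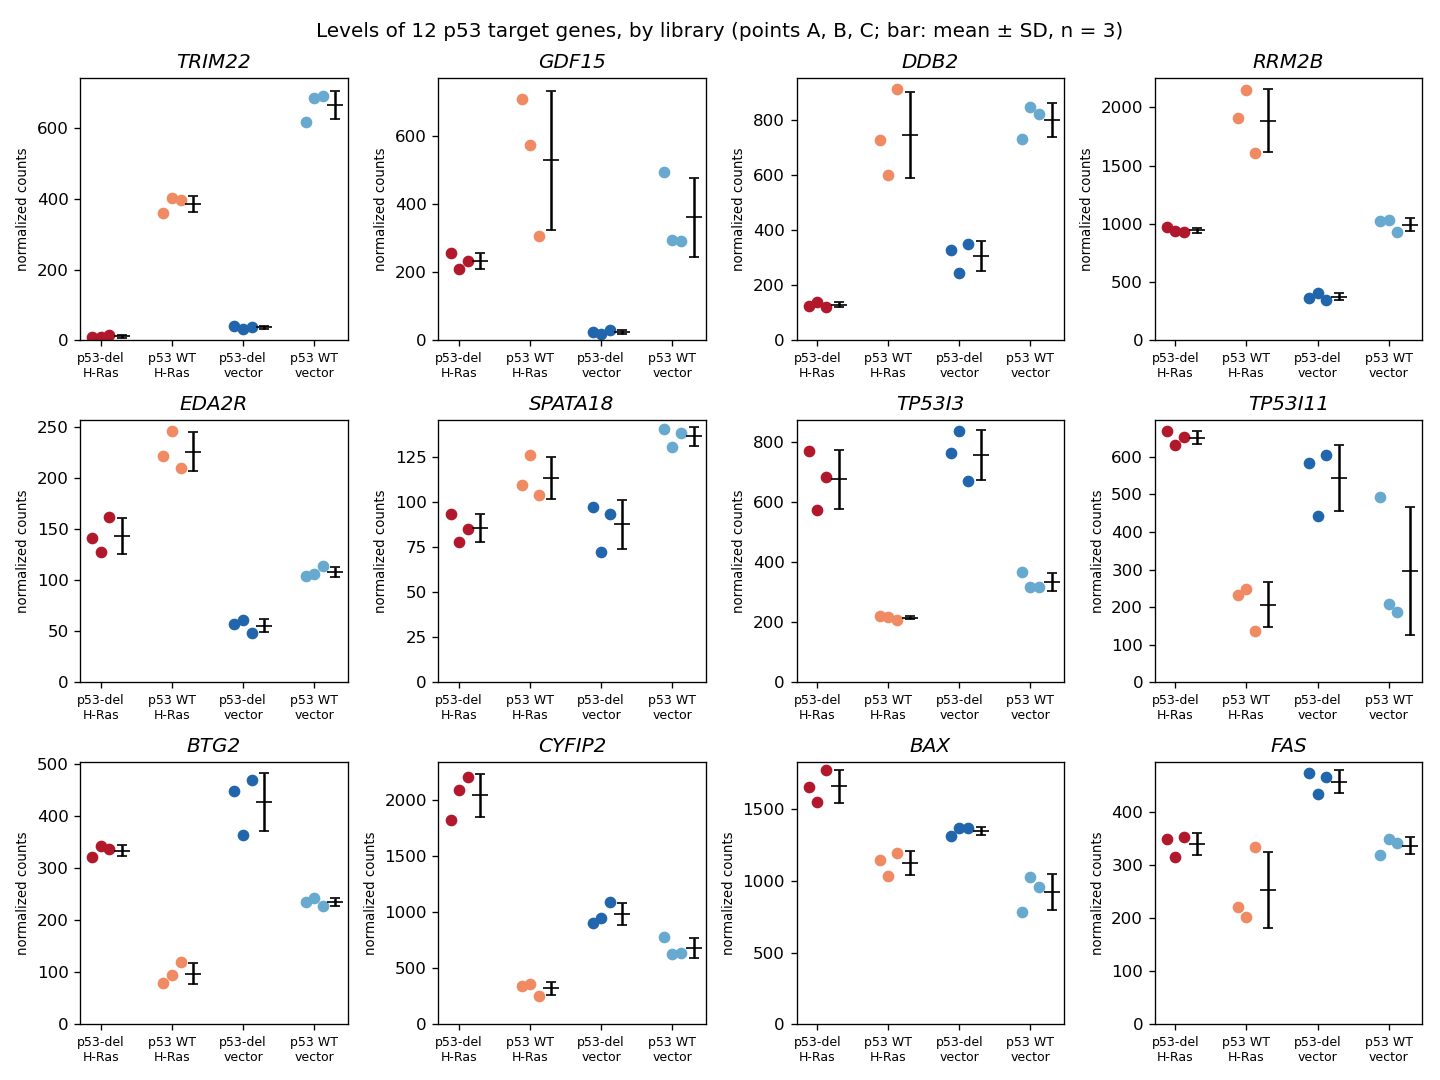
Normalized counts of 12 p53 target genes by library, with both H-Ras groups left of both vector groups and the p53-deleted group first in each pair. Points are libraries A, B and C, and bars show the mean ± SD (n = 3). TRIM22 at 8.76 to 42.1 normalized counts in p53-deleted libraries lies below 360.2 to 692 in p53 wild-type libraries.

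Of the 4 DNA repair genes, 3 were lower in the p53-deleted vector line, where 16.8% of all genes were, and 2 in the p53-deleted H-Ras line, where 18.2% were. DDB2 encodes the damage-binding subunit that finds ultraviolet lesions for nucleotide excision repair. It had 327, 243 and 348 normalized counts in p53-deleted vector libraries, against 728, 845 and 819 in p53 wild-type vector libraries. DDB2 was 2.61-fold lower in the p53-deleted vector line (log2 fold change -1.39 ± 0.16 SE, adjusted p = 3.3e-05), with no overlap. In H-Ras cells DDB2 had 125, 139 and 123 normalized counts in p53-deleted H-Ras libraries, against 724, 599 and 909.8 in p53 wild-type H-Ras libraries. The p53-deleted H-Ras libraries lay close together and 5.78-fold below the p53 wild-type ones (log2 fold change -2.50 ± 0.16 SE, adjusted p = 2.3e-07). RRM2B encodes the p53-inducible subunit of ribonucleotide reductase, which supplies deoxynucleotides outside S phase. It had 366, 410.1 and 350.1 normalized counts in p53-deleted vector libraries, against 1025, 1030.0 and 929 in p53 wild-type vector libraries. RRM2B was 2.65-fold lower without overlap (log2 fold change -1.40 ± 0.11 SE, adjusted p = 1.2e-06). In H-Ras cells RRM2B had 969.8, 939 and 931 normalized counts in p53-deleted H-Ras libraries, against 1905, 2149 and 1607 in p53 wild-type H-Ras libraries. Both groups stood higher there, and RRM2B was again lower in the p53-deleted line, by 1.99-fold (log2 fold change -0.98 ± 0.11 SE, adjusted p = 1.7e-05). XPC encodes a protein that recognizes damage alongside DDB2. It had 464, 407 and 443 normalized counts in p53-deleted vector libraries, against 569, 533 and 520.5 in p53 wild-type vector libraries. In H-Ras cells XPC had 573, 579 and 586 normalized counts in p53-deleted H-Ras libraries, against 495, 435 and 454 in p53 wild-type H-Ras libraries. XPC was lower in the p53-deleted vector line (log2 fold change -0.30 ± 0.09 SE, adjusted p = 0.019) and higher in the p53-deleted H-Ras line (log2 fold change 0.33 ± 0.09 SE, adjusted p = 0.011), with no overlap in either. The lower call in vector cells had an adjusted p of 0.054 by limma without p53 wild-type library A and 0.075 without p53-deleted library B. POLH, the translesion polymerase eta, did not pass in either comparison (log2 fold change 0.03 in vector cells and -0.15 in H-Ras cells).

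Of the 14 cell death genes, 6 were higher and 2 lower in the p53-deleted vector line, where 16.1% of all genes were higher and 16.8% lower. In the p53-deleted H-Ras line 7 were higher and 1 lower, where 19.1% of all genes were higher and 18.2% lower. Among the higher ones, BAX encodes a protein that forms pores in the outer mitochondrial membrane. It had 1314, 1365 and 1367 normalized counts in p53-deleted vector libraries, against 781, 1028 and 958 in p53 wild-type vector libraries. In H-Ras cells BAX had 1655, 1548 and 1776 normalized counts in p53-deleted H-Ras libraries, against 1146, 1033 and 1195 in p53 wild-type H-Ras libraries. The groups did not overlap in either pair, and BAX was 1.46-fold higher in the p53-deleted vector line (log2 fold change 0.56 ± 0.11 SE, adjusted p = 0.0014) and 1.48-fold higher in the p53-deleted H-Ras line (log2 fold change 0.56 ± 0.11 SE, adjusted p = 0.0012). FAS encodes the death receptor CD95. It had 474, 433 and 466 normalized counts in p53-deleted vector libraries, against 318, 349 and 342 in p53 wild-type vector libraries. In H-Ras cells FAS had 350.0, 316 and 354 normalized counts in p53-deleted H-Ras libraries, against 222, 202 and 335 in p53 wild-type H-Ras libraries. FAS was higher without overlap in vector cells (log2 fold change 0.44 ± 0.16 SE, adjusted p = 0.044), while in H-Ras cells p53 wild-type library C reached the p53-deleted range (log2 fold change 0.46 ± 0.16 SE, adjusted p = 0.035). The FAS call was lost in vector cells without any of the 6 vector libraries taken singly (adjusted p = 0.070 to 0.12 by limma). In H-Ras cells it was lost without any of the 6 H-Ras libraries but p53 wild-type library C (adjusted p = 0.052 to 0.14 by limma). APAF1, the scaffold of the apoptosome, had 356, 455 and 349 normalized counts in p53-deleted vector libraries, against 231, 274 and 265 in p53 wild-type vector libraries. It was 1.51-fold higher without overlap (log2 fold change 0.58 ± 0.17 SE, adjusted p = 0.017), a call lost without p53-deleted vector library B (adjusted p = 0.079 by limma) or p53 wild-type vector library A (adjusted p = 0.054). In H-Ras cells APAF1 had means of 243 ± 43.2 in the p53-deleted and 256 ± 46.5 in the p53 wild-type line (SD, n = 3 each), and did not pass.

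CYFIP2, TP53I11 and TP53I3 were the cell death genes with the largest log2 fold change of p53-deleted over p53 wild-type in H-Ras cells. TP53I3 encodes the quinone oxidoreductase PIG3. It had 766, 837 and 669 normalized counts in p53-deleted vector libraries, against 368, 318 and 318 in p53 wild-type vector libraries. In H-Ras cells TP53I3 had 769, 574 and 685 normalized counts in p53-deleted H-Ras libraries, against 220.0, 219.6 and 209 in p53 wild-type H-Ras libraries. TP53I3 was 2.26-fold higher in the p53-deleted vector line (log2 fold change 1.17 ± 0.12 SE, adjusted p = 1.4e-05) and 3.13-fold higher in the p53-deleted H-Ras line (log2 fold change 1.63 ± 0.12 SE, adjusted p = 7.4e-07), with wide gaps between the groups. TP53I11, a p53-inducible gene also called PIG11, had 583, 443 and 604 normalized counts in p53-deleted vector libraries, against 493, 208 and 188 in p53 wild-type vector libraries. Library A of the p53 wild-type group lay within the p53-deleted range and apart from libraries B and C (log2 fold change 1.00 ± 0.31 SE, adjusted p = 0.026). This call was lost without p53-deleted library A or C or p53 wild-type library B or C (adjusted p = 0.081 to 0.11 by limma), and kept without p53 wild-type library A. In H-Ras cells TP53I11 had 669, 632 and 652 normalized counts in p53-deleted H-Ras libraries, against 233, 248 and 137 in p53 wild-type H-Ras libraries, 3.15-fold higher without overlap (log2 fold change 1.70 ± 0.31 SE, adjusted p = 0.00095). CYFIP2 encodes a subunit of the WAVE complex, which controls actin assembly. It had 903, 951 and 1092 normalized counts in p53-deleted vector libraries, against 780.1, 623 and 639 in p53 wild-type vector libraries. In H-Ras cells CYFIP2 had 1826, 2088 and 2207 normalized counts in p53-deleted H-Ras libraries, against 345, 361 and 254 in p53 wild-type H-Ras libraries. The difference was modest in vector cells (log2 fold change 0.53 ± 0.14 SE, adjusted p = 0.012), where it was lost without p53-deleted library C (adjusted p = 0.053 by limma) or p53 wild-type library B (adjusted p = 0.0501). It was 6.37-fold in H-Ras cells (log2 fold change 2.68 ± 0.14 SE, adjusted p = 4.8e-08), with every p53-deleted library far above every p53 wild-type one.

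BBC3 and TP53INP1 passed the test in H-Ras cells but not in vector cells. BBC3 encodes PUMA, a BH3-only protein that neutralizes the survival proteins of the BCL2 family. It had 73.9, 96.4 and 109 normalized counts in p53-deleted H-Ras libraries, against 48.1, 56.4 and 47.2 in p53 wild-type H-Ras libraries, 1.84-fold higher without overlap (log2 fold change 0.85 ± 0.18 SE, adjusted p = 0.0025). In vector cells BBC3 had 55.9, 50.0 and 63.7 normalized counts in p53-deleted vector libraries, against 88.4, 75.8 and 74.5 in p53 wild-type vector libraries. The p53-deleted libraries all lay below the p53 wild-type ones, with an adjusted p of 0.054 by limma. TP53INP1 encodes a stress-induced nuclear protein that acts with p53. It had 503, 513 and 566 normalized counts in p53-deleted H-Ras libraries, against 307, 309 and 173 in p53 wild-type H-Ras libraries, 2.01-fold higher without overlap (log2 fold change 1.05 ± 0.28 SE, adjusted p = 0.011). Its vector groups overlapped, with means of 192 ± 25.7 in the p53-deleted and 182 ± 87.6 in the p53 wild-type line (SD, n = 3 each). Without p53 wild-type vector library A and p53 wild-type H-Ras library C, TP53INP1 passed there as higher (log2 fold change 0.53, adjusted p = 0.0036 by limma).

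The lower cell death genes were EDA2R and SPATA18. EDA2R encodes the receptor for ectodysplasin A2. It had 56.8, 61.1 and 48.7 normalized counts in p53-deleted vector libraries, against 104, 106 and 114 in p53 wild-type vector libraries. In H-Ras cells EDA2R had 141, 128 and 162 normalized counts in p53-deleted H-Ras libraries, against 221, 246 and 209 in p53 wild-type H-Ras libraries. EDA2R was lower without overlap in both p53-deleted lines, by 1.94-fold in vector cells (log2 fold change -0.95 ± 0.14 SE, adjusted p = 0.00022) and 1.57-fold in H-Ras cells (log2 fold change -0.65 ± 0.14 SE, adjusted p = 0.0029). SPATA18, also called MIEAP, encodes a protein of mitochondrial quality control. It had 97.1, 72.2 and 93.5 normalized counts in p53-deleted vector libraries, against 141, 130.4 and 138 in p53 wild-type vector libraries. SPATA18 was lower without overlap in vector cells (log2 fold change -0.64 ± 0.15 SE, adjusted p = 0.0055). In H-Ras cells SPATA18 had 93.5, 77.9 and 85.0 normalized counts in p53-deleted H-Ras libraries, against 109, 126 and 104 in p53 wild-type H-Ras libraries, again without overlap, but with an adjusted p of 0.054 by limma. The other 4 cell death genes, TNFRSF10B (the TRAIL receptor DR5), AEN (an apoptosis-enhancing nuclease), PHLDA3 (an inhibitor of AKT) and TRIAP1 (an inhibitor of apoptosis), did not pass in either comparison. Their log2 fold changes ran from -0.20 for TRIAP1 to 0.41 for AEN in vector cells, and from -0.34 for AEN to 0.30 for PHLDA3 in H-Ras cells.

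Of the 6 cell cycle genes, BTG2 alone passed in vector cells, and 5 passed in H-Ras cells, 2 higher and 3 lower, where 33.0% of all genes passed in vector and 37.3% in H-Ras cells. BTG2 encodes an antiproliferative adaptor of the CCR4-NOT deadenylase. It had 449, 365 and 469.5 normalized counts in p53-deleted vector libraries, against 235, 243 and 228 in p53 wild-type vector libraries. In H-Ras cells BTG2 had 322, 343 and 337 normalized counts in p53-deleted H-Ras libraries, against 79.8, 94.4 and 119 in p53 wild-type H-Ras libraries. BTG2 was higher without overlap in the p53-deleted line of both pairs, by 1.82-fold in vector cells (log2 fold change 0.85 ± 0.14 SE, adjusted p = 0.00063) and 3.42-fold in H-Ras cells (log2 fold change 1.78 ± 0.14 SE, adjusted p = 1.3e-06). CCNG1 encodes cyclin G1, a regulator of p53 turnover. It had 2971, 3233 and 2969.7 normalized counts in p53-deleted H-Ras libraries, against 2452, 2676 and 1870.0 in p53 wild-type H-Ras libraries, higher without overlap (log2 fold change 0.41 ± 0.11 SE, adjusted p = 0.014), a call lost without p53-deleted H-Ras library B (adjusted p = 0.057 by limma). In vector cells the CCNG1 means were 1671 ± 67.1 in the p53-deleted and 1736 ± 27.7 in the p53 wild-type line (SD, n = 3 each).

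GADD45A, SFN and PLK2 were lower in the p53-deleted H-Ras line and did not pass in vector cells. GADD45A encodes a growth arrest protein that inhibits the CDK1 kinase. It had 498, 360.3 and 382 normalized counts in p53-deleted H-Ras libraries, against 589, 582 and 618 in p53 wild-type H-Ras libraries, lower without overlap (log2 fold change -0.54 ± 0.15 SE, adjusted p = 0.014). The call was lost without p53-deleted H-Ras library B (adjusted p = 0.066 by limma) or C (adjusted p = 0.057). SFN encodes 14-3-3 sigma, an epithelial protein that holds cyclin B1 and CDK1 in the cytoplasm. It had 900.3, 1163 and 1185 normalized counts in p53-deleted H-Ras libraries, against 1516, 1525 and 1559 in p53 wild-type H-Ras libraries, lower without overlap (log2 fold change -0.51 ± 0.11 SE, adjusted p = 0.0021). PLK2 encodes polo-like kinase 2, a stress-responsive kinase of centriole duplication. It had 23.2, 31.2 and 24.7 normalized counts in p53-deleted H-Ras libraries, against 64.5, 52.3 and 163 in p53 wild-type H-Ras libraries. All 3 p53-deleted libraries were below the p53 wild-type ones, among which library C was high (log2 fold change -1.61 ± 0.32 SE, adjusted p = 0.0015). In vector cells the means of GADD45A were 367 ± 76.2 in the p53-deleted and 308 ± 13.2 in the p53 wild-type line (SD, n = 3 each). Those of SFN were 7479.8 ± 630.5 in the p53-deleted and 8349.9 ± 161 in the p53 wild-type line, and those of PLK2 435 ± 27.9 in the p53-deleted and 508 ± 67.3 in the p53 wild-type line. Without p53-deleted vector library C, GADD45A passed there as higher (adjusted p = 0.049 by limma). PLK3, another polo-like kinase, did not pass in either comparison.

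The proliferation genes moved with the H-Ras comparison. Of 18, 13 were lower in the p53-deleted H-Ras line (17 lower at an unadjusted p under 0.05), where 18.2% of all genes were. Their summed level was 6452 to 9848 normalized counts in p53-deleted H-Ras libraries. In p53 wild-type H-Ras libraries it was 13023 in A, 11593 in B and 35979.7 in C, the library that stood apart. In vector cells 0 of the 18 passed by limma (2 were higher and 0 lower in the p53-deleted line at an unadjusted p under 0.05). The sum was there 37489.8 to 41574 in p53-deleted against 23700.2 to 42247 in p53 wild-type libraries. Their part in the result was not tested. Without p53 wild-type vector library A and p53 wild-type H-Ras library C, 9 of the 32 targets were higher and 8 lower in vector cells, and 12 were higher and 9 lower in H-Ras cells. All genes also passed more often then, 41.0% of them in vector and 43.2% in H-Ras cells.

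Of the 4 metabolic genes, TIGAR alone passed in vector cells and FDXR alone in H-Ras cells. That is 25% in each, below the 33.0% of all genes in vector and 37.3% in H-Ras cells. TIGAR encodes a fructose bisphosphatase that lowers glycolytic flux. It had 476, 525 and 389.9 normalized counts in p53-deleted vector libraries, against 160.1, 319 and 399 in p53 wild-type vector libraries. Library C of the p53 wild-type group overlapped the p53-deleted range and library A was the lowest (log2 fold change 0.75 ± 0.26 SE, adjusted p = 0.039). Without p53 wild-type library A the log2 fold change was 0.37 and the adjusted p 0.094 by limma, and the call was also lost without p53-deleted library A (adjusted p = 0.10) or B (adjusted p = 0.12). FDXR encodes ferredoxin reductase of the mitochondrial electron transfer to cytochrome P450 enzymes. It had 281, 294 and 311 normalized counts in p53-deleted H-Ras libraries, against 173, 147 and 145 in p53 wild-type H-Ras libraries, 1.91-fold higher without overlap (log2 fold change 0.93 ± 0.14 SE, adjusted p = 0.00018). In vector cells FDXR averaged 226 ± 36.5 in the p53-deleted and 228 ± 24.4 in the p53 wild-type line (SD, n = 3 each). SESN1 and SESN2, sestrins that restrain the mTORC1 kinase, did not pass in either comparison, with log2 fold changes between -0.19 and 0.25. ZMAT3, an RNA-binding zinc finger protein, and RPS27L, a paralog of ribosomal protein S27, did not pass either. Reads of RPS27L may be shared with its near-identical relatives, so its values are uncertain.

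The vector and H-Ras comparisons share no library and are set side by side here. They were fitted together, with a shared estimate of each gene's spread and joint size factors, so they are not fully independent. Both called 5 genes lower, EDA2R, DDB2, RRM2B, GDF15 and TRIM22, which are 71.4% of the 7 lower genes in vector cells and 62.5% of the 8 in H-Ras cells. Over all genes the shared lower calls were 46.5% of those in vector cells and 43.0% of those in H-Ras cells. Both called 6 genes higher, BAX, FAS, TP53I3, CYFIP2, TP53I11 and BTG2, or 75.0% of the 8 in vector cells and 54.5% of the 11 in H-Ras cells, against 55.4% in vector cells and 46.8% in H-Ras cells over all genes. XPC was the 1 gene called in opposite directions.

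**Figure D3:**
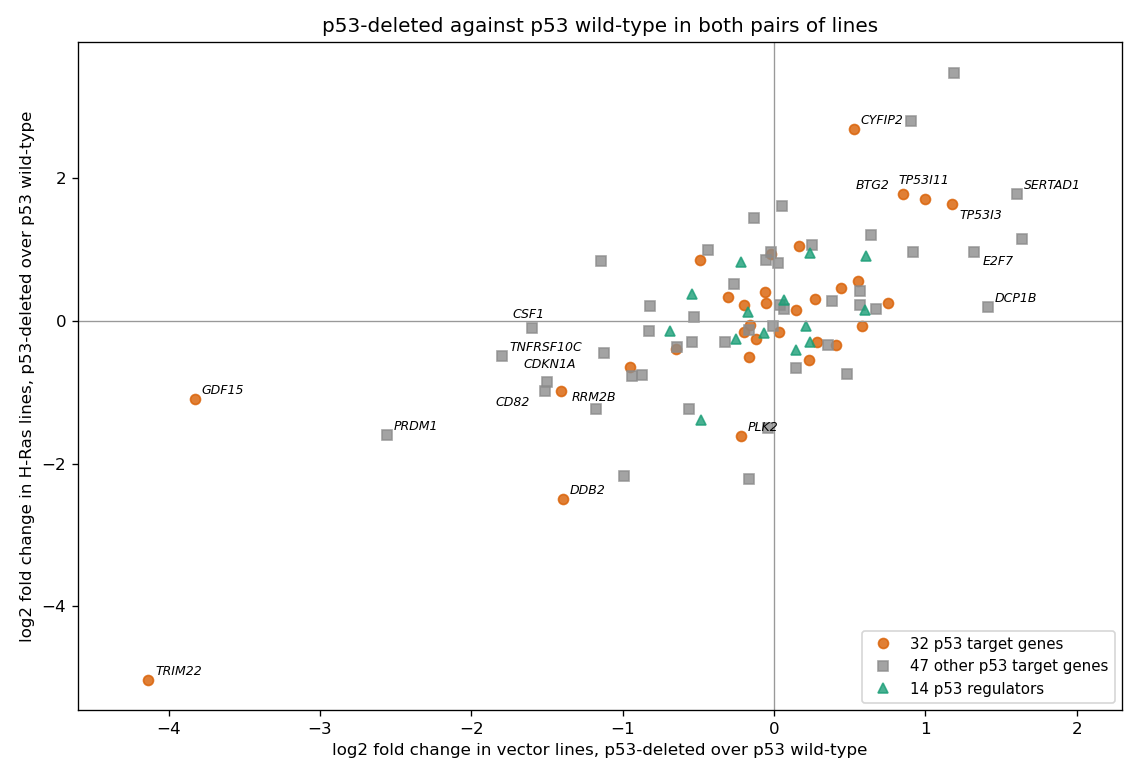
Log2 fold change in p53-deleted over p53 wild-type cells for vector lines (horizontal axis) and H-Ras lines (vertical axis). Orange circles are the 32 p53 target genes, grey squares 47 other p53 targets and green triangles 14 p53 regulators. TRIM22, at -4.13 in vector and -5.03 in H-Ras lines, lies at the lower left, and TP53I3, at 1.17 in vector and 1.63 in H-Ras lines, at the upper right.

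Other genes of the pathway also went both ways. Of 47 further p53 targets, 9 were higher and 14 lower in the p53-deleted vector line (48.9%, against 33.0% of all genes). In the p53-deleted H-Ras line 13 were higher and 14 lower (57.4%, against 37.3% of all genes). CDKN1A, which encodes the cyclin-dependent kinase inhibitor p21, had 736, 843 and 876 normalized counts in p53-deleted vector libraries, against 2129, 2351 and 2460.4 in p53 wild-type vector libraries. In H-Ras cells CDKN1A had 2611, 2114 and 2101 normalized counts in p53-deleted H-Ras libraries, against 4468, 4273 and 3575 in p53 wild-type H-Ras libraries. It was lower without overlap in the p53-deleted line of the vector pair (log2 fold change -1.50 ± 0.12 SE, adjusted p = 1.3e-06) and of the H-Ras pair (log2 fold change -0.85 ± 0.12 SE, adjusted p = 0.00011). The others with the largest fall in the p53-deleted vector line were PRDM1, a transcriptional repressor (log2 fold change -2.56), TNFRSF10C, a decoy TRAIL receptor (-1.79), CSF1, a macrophage growth factor (-1.60), and CD82, a tetraspanin (-1.51). Few reads stood behind PRDM1, with 5, 9 and 13 in p53-deleted vector libraries against 95, 33 and 36 in p53 wild-type vector libraries. TNFRSF10C had 8, 2 and 6 reads in p53-deleted vector libraries against 24, 11 and 18 in p53 wild-type vector libraries. Among the further targets with a large rise in the p53-deleted vector line were SERTAD1, a regulator of cyclin D kinase activity (log2 fold change 1.61), DCP1B, an mRNA decapping factor (1.41), and E2F7, a repressor of the E2F family (1.32). Of the 14 regulators of p53, 2 were higher and 2 lower in vector cells, and 3 were higher and 1 lower in H-Ras cells. That is 28.6% in both, below the 33.0% of all genes in vector and 37.3% in H-Ras cells. MDM2 had 957, 844 and 889 normalized counts in p53-deleted vector libraries, against 1469, 1399 and 1074 in p53 wild-type vector libraries, lower without overlap (log2 fold change -0.54 ± 0.12 SE, adjusted p = 0.0031). In H-Ras cells MDM2 had 1356, 1304 and 1219 normalized counts in p53-deleted H-Ras libraries, against 938, 977 and 1077 in p53 wild-type H-Ras libraries, higher without overlap (log2 fold change 0.38 ± 0.12 SE, adjusted p = 0.022), a call lost without library A or B of either H-Ras group (adjusted p = 0.060 to 0.078 by limma). MDM4, a relative of MDM2 that inhibits p53 (log2 fold change 0.61), and the ubiquitin ligase RFWD2 (0.60) were higher in vector cells.

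The second question was how the targets responded to H-Ras in each background, tested within each table of 6 libraries. In the p53-deleted background 14 of the 32 genes were higher and 9 lower with H-Ras, or 71.9%, where 56.1% of the 12768 genes tested passed, 27.8% higher and 28.4% lower. Their median log2 fold change was 0.21, against 0.01 over all genes, and was 0.08 without p53-deleted H-Ras library A. In the p53 wild-type background 5 were higher and 8 lower, or 40.6%, where 25.7% of the 12454 genes tested passed, 13.0% higher and 12.7% lower. The median was there -0.10, against -0.02 over all genes, and ran from -0.17 without H-Ras library C to -0.06 without H-Ras library B. The count in the p53 wild-type background moved with p53 wild-type vector library A and p53 wild-type H-Ras library C, and without them 10 were higher and 13 lower, while 57.8% of all genes passed. The 18 proliferation genes were lower with H-Ras in 18 cases in the p53-deleted background, where 28.4% of all genes were. In the p53 wild-type background 2 were lower, where 12.7% of all genes were. There 8 were lower at an unadjusted p under 0.05 by limma, and the median log2 fold change was -0.85. The sum was 35980 in p53 wild-type H-Ras library C against 13023 in A and 11593 in B. The difference between the 2 responses, tested below, passed as negative for 2 of the 18 genes (12 negative at an unadjusted p under 0.05). Of all genes 7.80% passed as negative. The part of the proliferation genes in these results was not tested.

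**Figure D4:**
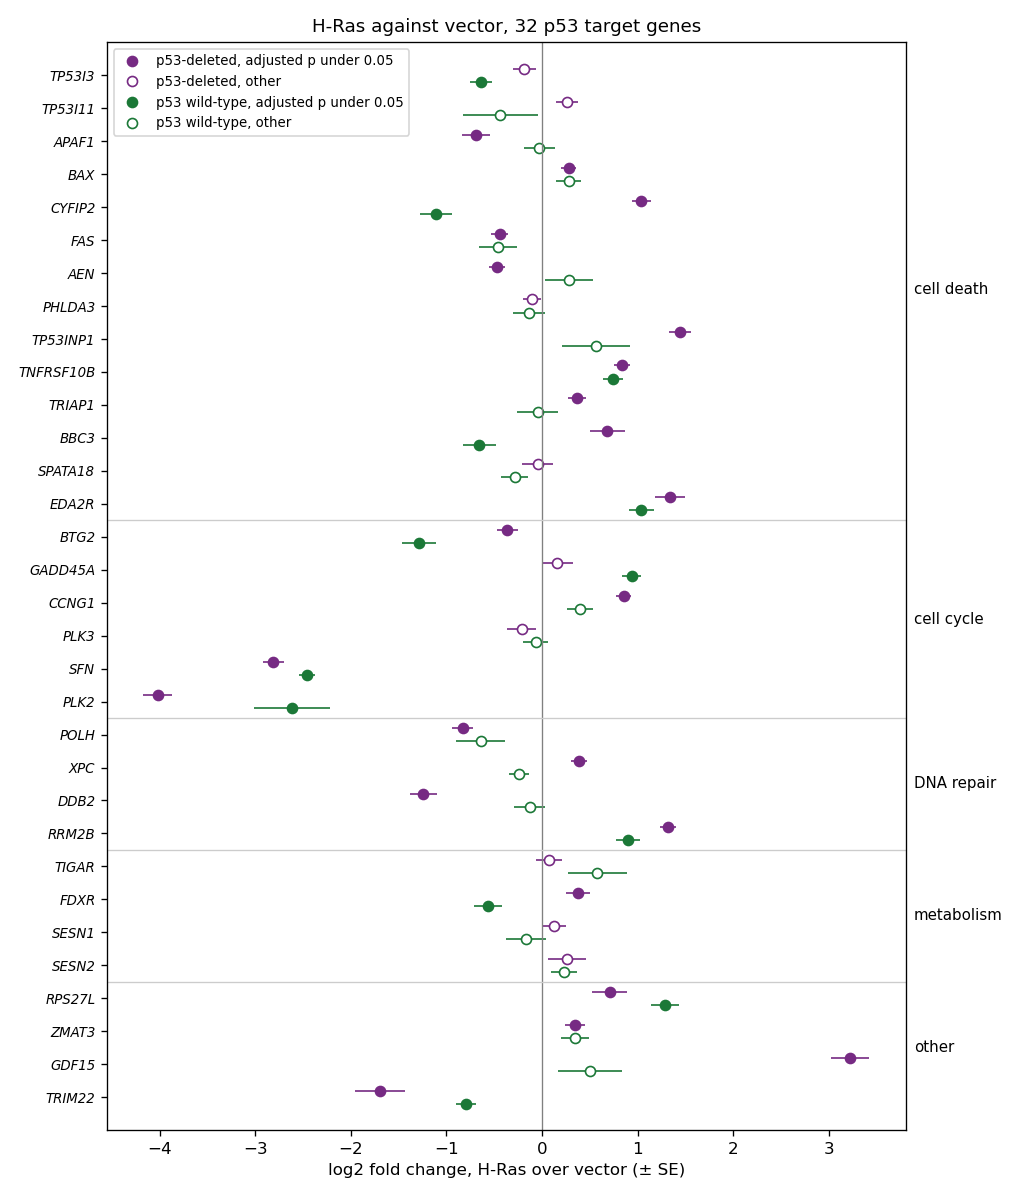
Log2 fold change (± SE) of each of the 32 p53 target genes in H-Ras over vector cells, grouped by function. Purple points are the p53-deleted and green points the p53 wild-type background, and filled points passed an adjusted p of 0.05. PLK2, at -4.02 in the p53-deleted and -2.62 in the p53 wild-type background, and SFN, at -2.81 in the p53-deleted and -2.46 in the p53 wild-type background, lie farthest left, while GDF15 at 3.23 in the p53-deleted background lies farthest right.

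Among the 32 genes PLK2 and SFN fell most with H-Ras, in both backgrounds. PLK2 averaged 26.4 ± 4.24 normalized counts in p53-deleted H-Ras libraries against 435 ± 27.9 in p53-deleted vector libraries (log2 fold change -4.02 ± 0.15 SE, adjusted p = 3.7e-09). It averaged 93.3 ± 60.7 in p53 wild-type H-Ras libraries against 508 ± 67.3 in p53 wild-type vector libraries (log2 fold change -2.62 ± 0.40 SE, adjusted p = 0.003). SFN had 900.3, 1163 and 1185 normalized counts in p53-deleted H-Ras libraries, against 6908, 8156 and 7376 in p53-deleted vector libraries. In the p53 wild-type background SFN had 1516, 1525 and 1559 normalized counts in p53 wild-type H-Ras libraries, against 8311, 8212 and 8527 in p53 wild-type vector libraries. SFN was 6.91-fold lower with H-Ras in the p53-deleted background (log2 fold change -2.81 ± 0.11 SE, adjusted p = 5.9e-09) and 5.45-fold lower in the p53 wild-type background (log2 fold change -2.46 ± 0.08 SE, adjusted p = 5.3e-06). BTG2 was also lower in both, with a log2 fold change of -0.36 in the p53-deleted and -1.29 in the p53 wild-type background. The BTG2 call in the p53-deleted background was lost without p53-deleted vector library A (adjusted p = 0.064 by limma). It was also lost in a fit over all 12 libraries (adjusted p = 0.067 by limma). TRIM22 was lower too, at -1.70 in the p53-deleted and -0.79 in the p53 wild-type background.

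EDA2R, RRM2B, TNFRSF10B and RPS27L were higher with H-Ras in both backgrounds. The log2 fold change of EDA2R was 1.34 ± 0.16 in the p53-deleted and 1.04 ± 0.13 in the p53 wild-type background (SE). That of RRM2B was 1.32 ± 0.09 in the p53-deleted and 0.90 ± 0.12 in the p53 wild-type background. TNFRSF10B averaged 3119 ± 283 in p53-deleted H-Ras libraries against 1722 ± 82.5 in p53-deleted vector libraries, and 3256 ± 281 in p53 wild-type H-Ras libraries against 1925 ± 110.2 in p53 wild-type vector libraries (SD, n = 3 each). RPS27L had 1714, 1856 and 1522 normalized counts in p53 wild-type H-Ras libraries, against 561, 746 and 771 in p53 wild-type vector libraries, 2.45-fold higher without overlap (log2 fold change 1.29 ± 0.15 SE, adjusted p = 0.00082). In the p53-deleted background it had 1394, 1399 and 1353 normalized counts in p53-deleted H-Ras libraries, against 953, 1068 and 573 in p53-deleted vector libraries, also without overlap (log2 fold change 0.71 ± 0.18 SE, adjusted p = 0.0063). CDKN1A rose as well, by 1.45 ± 0.11 on the log2 scale in the p53-deleted and 0.81 ± 0.12 in the p53 wild-type background (SE).

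GDF15 and TP53INP1 rose with H-Ras in the p53-deleted background. GDF15 averaged 234 ± 23.5 in p53-deleted H-Ras libraries against 24.4 ± 6.63 in p53-deleted vector libraries, 9.58-fold higher (log2 fold change 3.23 ± 0.20 SE, adjusted p = 1.9e-07). TP53INP1 averaged 527 ± 33.6 in p53-deleted H-Ras libraries against 192 ± 25.7 in p53-deleted vector libraries (log2 fold change 1.44 ± 0.12 SE, adjusted p = 1.4e-06). In the p53 wild-type background both had overlapping groups and did not pass (log2 fold change 0.50 for GDF15 and 0.56 for TP53INP1). GDF15 passed there without p53 wild-type H-Ras library C (log2 fold change 0.84, adjusted p = 0.034 by limma), and TP53INP1 without p53 wild-type vector library A (log2 fold change 0.93, adjusted p = 0.049). Without both of these libraries the log2 fold change was 1.09 for GDF15 (adjusted p = 8.4e-07 by limma) and 1.20 for TP53INP1 (adjusted p = 1.3e-06). CCNG1 (log2 fold change 0.86), XPC (0.39), BAX (0.28), TRIAP1 (0.37) and ZMAT3 (0.35) were higher with H-Ras in the p53-deleted background. In it DDB2 (-1.24), POLH (-0.83), APAF1 (-0.69), AEN (-0.47) and FAS (-0.44) were lower. The TRIAP1 and AEN calls were lost in a fit over all 12 libraries (adjusted p = 0.083 for TRIAP1 and 0.071 for AEN by limma). Without p53 wild-type H-Ras library C, CCNG1 (adjusted p = 0.0051 by limma) and ZMAT3 (adjusted p = 0.021) also passed as higher in the p53 wild-type background, and FAS (adjusted p = 0.0064) and POLH (adjusted p = 0.019) as lower. With p53 wild-type vector library A left out too, 57.8% of all genes passed there. DDB2 (log2 fold change -0.36, adjusted p = 0.0065 by limma), TRIAP1 (-0.39, adjusted p = 0.0034) and SESN1 (-0.46, adjusted p = 0.0089) were then lower. SESN2 was higher (0.31, adjusted p = 0.046). GADD45A was higher (0.94) and TP53I3 lower (-0.64) in the p53 wild-type background. CYFIP2, BBC3 and FDXR went opposite ways in the 2 backgrounds. The log2 fold change of CYFIP2 was 1.04 in the p53-deleted and -1.11 in the p53 wild-type background, that of BBC3 0.68 in the p53-deleted and -0.66 in the p53 wild-type background, and that of FDXR 0.38 in the p53-deleted and -0.57 in the p53 wild-type background. In the p53 wild-type background the BBC3 call was lost without any vector library or H-Ras library A or B, and the FDXR call without vector library B or C or H-Ras library A or B (adjusted p = 0.051 to 0.12 by limma). In the p53-deleted background the FDXR call was lost without vector library A or B or H-Ras library B or C (adjusted p = 0.059 to 0.083 by limma), and the BAX call without H-Ras library C (adjusted p = 0.067). By the authors' deposited adjusted p, TP53I3 (0.083), BBC3 (0.21) and FDXR (0.21) did not pass in the p53 wild-type background. Nor did BAX (0.068) in the p53-deleted background.

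Passing in one background and not in the other does not show a difference, so the difference of the responses was tested over all 12 libraries. It is the log2 response to H-Ras in p53-deleted cells minus that in p53 wild-type cells. Of the 32 genes, 10 passed, 6 with a positive and 4 with a negative difference, or 31.2%, where 17.0% of 13233 genes passed, 9.17% positive and 7.80% negative. GDF15 had the largest positive difference at 2.73 ± 0.42, followed by CYFIP2 at 2.15 ± 0.20, BBC3 at 1.34 ± 0.26, FDXR at 0.95 ± 0.19, BTG2 at 0.93 ± 0.20 and XPC at 0.64 ± 0.13 (SE). BTG2 fell in both backgrounds and less in p53-deleted cells. PLK2 had the most negative difference at -1.40 ± 0.45, followed by DDB2 at -1.11 ± 0.23, TRIM22 at -0.89 ± 0.26 and GADD45A at -0.78 ± 0.22 (SE). The difference of MDM2 was 0.91 ± 0.16 and that of CDKN1A 0.65 ± 0.17 (SE), and both passed. The calls of PLK2, TRIM22 and GADD45A, and that of CDKN1A without p53-deleted vector library A (adjusted p = 0.052 by limma), were lost in fits that left out 1 library.

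A further 10 of the 32 genes passed in neither comparison across p53 status. Their means over the 4 groups lay close together for PHLDA3, PLK3, SESN1, SESN2, TRIAP1, AEN and ZMAT3, with the highest 1.18 to 1.42 times the lowest. PHLDA3 averaged 516 ± 48.4 normalized counts in p53-deleted H-Ras and 424 ± 89.3 in p53 wild-type H-Ras libraries, and 549 ± 32.1 in p53-deleted vector and 455 ± 36.6 in p53 wild-type vector libraries (SD, n = 3 each). PLK3, PHLDA3, SESN1 and SESN2 passed in none of the 5 tests with all libraries in the fit. Some of the 10 passed with 1 library left out. In vector cells TRIAP1 was lower without p53 wild-type library A (adjusted p = 0.024 by limma), AEN was higher without p53 wild-type library C (adjusted p = 0.022), and RPS27L was higher without p53-deleted library C (adjusted p = 0.011). In H-Ras cells PHLDA3 was higher without p53 wild-type library A (adjusted p = 0.038 by limma). Leaving out both p53 wild-type vector library A and p53 wild-type H-Ras library C changed further calls. In vector cells TRIAP1 was then lower (log2 fold change -0.42, adjusted p = 0.0037 by limma) and PHLDA3 higher (0.34, adjusted p = 0.016). TRIAP1 was higher in H-Ras cells (0.33, adjusted p = 0.015). The differences of the responses of TRIAP1 (0.75, adjusted p = 0.0020) and SESN1 (0.58, adjusted p = 0.041) also passed. POLH averaged 193 ± 20.2 in p53-deleted H-Ras and 222 ± 69.7 in p53 wild-type H-Ras libraries, against 339 ± 5.30 in p53-deleted vector and 335 ± 61.2 in p53 wild-type vector libraries. With 3 libraries a group, a p that misses the threshold does not show that levels did not differ.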

How the data were processed

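RNA sequencing covered 12 MCF10A libraries. The submitters' processing notes name GRCh37 and the tools TopHat, HTSeq, SAMtools, Trimmomatic and FastQC. Their versions and the strand setting are not given in the sources used here. For each p53 background the authors deposited a table of group means and p-values per gene. The signal in these deposited tables is, by its values, a mean over 3 libraries of counts scaled by size factors particular to each table, and no library columns were given. The header of the p53 wild-type table carries another line number than the table's name, and its columns were taken as the groups the sample descriptions name.

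Library values were solved as the whole numbers of reads that give each mean at its 15 printed digits. A unique solution was found for 99.8% to 100.0% of genes above 0 per group. All splits were searched up to a mean of 1000. Above it each library was held to 0.2 to 2.5 times an equal share of the mean. The range was 0.5 to 1.6 above a mean of 20000 or where several solutions remained. For such genes the solution is unique only within these bounds. Of 500 means per group shifted off their value, 0 were solved, and 500 of 500 simulated means were solved correctly. Solved libraries carry no replicate number. Estimated totals were 7852553 to 10075574 reads. Size factors recomputed as medians of ratios differed by at most 0.0344%. Intervals and errors cover the spread of these libraries only.

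limma 3.58.1 (R 4.3.3) was fitted with a mean-variance trend to log2(normalized count + 1) of genes that reached 10 normalized counts in 3 or more libraries. It was also run on simulated counts, drawn with the same dispersion for every gene and with no library standing apart. That run therefore does not show the error rate in these data. P53 status and the difference of responses were fitted over 12 libraries with joint size factors, and each H-Ras comparison over the 6 libraries of its table. Benjamini-Hochberg adjusted p under 0.05, two-sided, over all genes counted as passing. Levels printed are on the joint scale. Python 3.11.15 with NumPy 2.4.6, pandas 2.3.3, numba 0.67.0 and Matplotlib 3.10.9 solved reads and drew figures. Genes described library by library are those that passed across p53 status, or changed by at least 1 on the log2 scale with H-Ras. Outside the list up to 4 genes per direction that passed in vector cells were named, with CDKN1A, MDM2 and HRAS, and 2 genes that these rules cover are not reported here. The members, lists and rules were chosen with earlier results of these data known.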

Additional observations from a re-analysis of the deposited data

Results flagged for a closer look

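For 10 of the 32 targets the response to H-Ras differed between the p53-deleted and the p53 wild-type background, by limma's test of the difference over all 12 libraries. That is 31.2%, where 17.0% of all 13233 genes tested passed. Each value is the log2 response in p53-deleted cells minus that in p53 wild-type cells. It was 2.73 for GDF15 (adjusted p = 0.0011), 2.15 for CYFIP2 (adjusted p = 3.3e-05), 1.34 for BBC3 (adjusted p = 0.0040), 0.95 for FDXR (adjusted p = 0.0061), 0.93 for BTG2 (adjusted p = 0.0092) and 0.64 for XPC (adjusted p = 0.0052). It was -1.40 for PLK2 (adjusted p = 0.049), -1.11 for DDB2 (adjusted p = 0.0065), -0.89 for TRIM22 (adjusted p = 0.031) and -0.78 for GADD45A (adjusted p = 0.028). The first 6 and DDB2 passed in all 16 alternatives run for this test. PLK2 did not pass without any 1 of 9 libraries, with an adjusted p up to 0.10 by limma, nor did TRIM22 without any 1 of 7 (adjusted p up to 0.077) or GADD45A without any 1 of 5 (adjusted p up to 0.075). Line pair and p53 status cannot be told apart in these differences.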

How the results depend on the processing

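No paired analysis was possible because library values solved from group means carry no replicate number. The 2 planned tests for raw counts were not run, since the deposited values are scaled means. Of the calls among the 32 targets, 9 of 15 across p53 status in vector cells held in all 11 alternatives, 15 of 19 in H-Ras cells, 18 of 23 for H-Ras in the p53-deleted background (10 alternatives), 11 of 13 for H-Ras in the p53 wild-type background, and 7 of 10 differences of the responses (16 alternatives). No call changed direction in these alternatives. The authors' deposited adjusted p was not counted among them. Targets that had not passed did so in at least 1 alternative in 6 cases in vector cells, 4 in H-Ras cells, 2 for H-Ras in the p53-deleted and 11 in the p53 wild-type background, and 7 for the difference of the responses. Calls lost with another pseudocount, filter or scaling were FAS in vector cells, BBC3 with H-Ras in the p53 wild-type background and the differences of PLK2 and TRIM22. The H-Ras comparison in the p53 wild-type background moved most. It called 1616 genes higher and 1583 lower. With 1 library left out it called 739 to 1927 higher and 767 to 2201 lower. Without p53 wild-type vector library A and p53 wild-type H-Ras library C it called 3341 higher and 3458 lower, with 10 targets higher and 13 lower. In a fit over all 12 libraries 2483 genes were higher. With 1 library left out 5 to 8 targets were higher, as were 6.06% to 15.8% of all genes. By the authors' deposited adjusted p 5 targets and 1073 of all genes were lower. In vector cells 5 to 7 targets were higher in p53-deleted libraries with 1 left out, as were 12.6% to 15.9% of all genes. For the difference of the responses, leaving out 1 library gave 744 to 1166 genes with a positive difference and 1 to 4 targets with a negative one, and a pseudocount of 5 gave 2 such targets. Of all genes 5.30% to 8.39% had a negative difference with 1 library left out, and 8.21% with a pseudocount of 5. The cause of these shifts was not tested. Fitting only the 6 libraries of the 2 groups compared, chosen after seeing the data, gave 7 targets higher and 6 lower in vector cells and 10 higher and 9 lower in H-Ras cells. Of all genes 30.2% passed in that fit in vector and 36.6% in H-Ras cells. Few reads stand behind TRIM22 in p53-deleted H-Ras libraries, at 8.76 to 14.8 normalized counts.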
